A study of Homo sapiens with 8 samples.

Results

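Focal adhesions are the sites at which integrins, the receptors for extracellular matrix, are tied to actin filaments by a layer of scaffold and signalling proteins. The genes described here encode 49 proteins of that layer, chosen by name as parts of the structure, with the integrins and the caveolar genes left out. All 49 were found among the 58206 genes of the deposited count table, and 45 of them were expressed highly enough to be tested. RNA had been sequenced from Alexander1 cells (ATCC CRL-8024), an established human hepatocellular carcinoma line of epithelial origin, in 4 libraries of the parental line ("wt (Axin1 -)") and 4 libraries of a stable derivative ("Axin1 +"). Both groups share the background of the line, in which Axin1, a scaffold that restrains canonical Wnt signalling, lacks the stretch that binds the kinase GSK3, so that the pathway is on without a ligand. The derivative additionally carries full-length Axin1 from a retroviral plasmid and was taken through hygromycin B selection of clones. The labels do not give the number of clones, and they attach the treatment text to all 8 samples without saying whether the parental cells were mock-infected. An effect of Axin1, of the infection and of the clone chosen therefore cannot be told apart. They also do not say that libraries of a group came from separate cultures, so p-values measure the spread between these libraries, which may be technical.

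As background, an adhesion forms when talin and kindlin bind the tail of the integrin beta subunit and switch the receptor on. Vinculin, alpha-actinin, filamin and the tensins then join it to actin, while the ILK-PINCH-parvin complex stabilises the link. Signals leave the site through the kinases FAK and SRC, the docking proteins paxillin and p130Cas (BCAR1), and the Crk and GIT-PIX modules that regulate small GTPases. LIM-domain proteins such as zyxin accumulate where the adhesion is under tension. In an epithelial tumour cell such as this one, these proteins set how firmly the cell holds to its matrix.

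The promoters of the genes were read for 3 short motifs tied to control of adhesion genes, in windows of 300 bases around the RefSeq start (GRCh38.p14). These were CTTTGA for the Wnt effectors TCF/LEF, GGAATG for the TEAD partners of YAP, and the CArG box bound by the serum response factor. Windows were at hand for 41 of the 49 genes; those for PARVA, TNS4, SORBS3, PTK2, PTK2B, ASAP1, FERMT1 and SRC were not used here. On either strand, CTTTGA stood in 3 of the 41 (7.32%, in EVL, FYN and PDLIM7) and GGAATG in 5 (12.2%, in DOCK1, FLNC, KANK1, TRIP6 and VCL). The same motifs stood in 8.74% and 10.7% of the windows of all tested genes, and in 13.1% and 14.0% of all 27305 windows. A CArG box stood in 3 of the 41 (7.32%), against 1.01% of the windows of tested genes and 1.29% of all windows. A match is a description of the letters and not evidence of binding. Of the 3 windows that hold a CArG box, those of FLNA, which rose, and FHL2, which did not pass the test, are printed to show the box in its surroundings. Each has 30 bases on either side of the box, which is in capitals, and is read on the strand of the gene.
FLNA, chrX:154374689-154374758, minus strand: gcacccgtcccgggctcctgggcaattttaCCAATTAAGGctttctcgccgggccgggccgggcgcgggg
FHL2, chr2:105438575-105438644, minus strand: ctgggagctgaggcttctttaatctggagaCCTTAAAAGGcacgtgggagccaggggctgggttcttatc
The box ran from 94 to 85 bases before the start in FLNA, from 101 to 92 in FHL2 and from 69 to 60 in RSU1.

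The libraries held between 11232951 and 26400782 counts, the 4 parental ones 15263761 or fewer, and a count of 3 was worth between 0.108 and 0.267 CPM (the usual depth-normalised count, here on TMM-scaled library totals). AXIN1 was no higher in the derivative, with 52.4 CPM ± 3.49 in the parental against 45.4 CPM ± 5.13 in the other libraries (SD, n = 4 each) and log2 fold change -0.21 (edgeR adjusted p = 0.267, SE 0.12). The libraries of the derivative are therefore called restored-labelled throughout, and every direction rests on the labels. All 10 hepatocyte markers examined were expressed, and their summed level was 23669 to 27912 CPM in the parental and 18167 to 21679 CPM in the restored-labelled libraries. Most of it was SERPINA1, with means of 16130 and 10358 CPM. Of the 10 markers 5 were called, where 19.2% of all tested genes were: FGB and TTR higher, and SERPINA1, TF and AHSG lower. ALB was at 13.8 CPM in restored replicate 1 and at 445 to 681 CPM in its fellows. Of the epithelial markers 4 of 5 were expressed, at a sum of 4676 to 5780 CPM and 3900.3 to 5598 CPM, and EPCAM was near 0. CDH1 was the only one of them called, and it was higher (log2 fold change 0.50, edgeR adjusted p = 0.0181). Of 8 fibroblast markers 2 passed the expression filter (sums of 2.71 to 3.29 and 1.38 to 4.84 CPM), and of 6 muscle markers 1 did (2.23 to 8.19 and 1.43 to 4.79 CPM). The fibroblast marker PDGFRB was called lower (log2 fold change -2.87, edgeR adjusted p = 0.00454). Its levels were low, at 0.801 to 2.29 CPM in the parental and 0.0493 to 0.430 CPM in the restored-labelled libraries. The leukocyte sum (421 to 949 and 672 to 919.5 CPM) was nearly all lysozyme, and PTPRC, CD3E and LAPTM5 had at most 3 counts in any library. The endothelial sum rose from between 4.58 and 6.77 CPM to between 34.1 and 58.5 CPM through PECAM1 alone, with KDR and TEK at 3 counts or fewer in each library and VWF and CDH5 near 0. In bulk RNA, fewer cells expressing a gene and less RNA per cell cannot be told apart. Replicate 1 of each group often lay at the edge of its group. Among the 45 tested adhesion genes, parental replicate 1 was the highest or the lowest of its group for 34, and restored replicate 1 for 32. For comparison, restored replicate 2 was the lowest for 17 and the highest for 9. Restored replicates 1 and 2 differed from their group mean by a median of 0.20 and 0.18 log2 units over these genes. Parental replicate 1 differed the most of all libraries, by 0.23 over these genes and 0.30 over all tested genes. The other parental libraries differed by 0.13 to 0.18 over these genes and 0.11 to 0.18 over all tested genes.

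With the quasi-likelihood test of edgeR and a Benjamini-Hochberg threshold of 0.05 over 14289 genes, 11 of the 45 tested genes differed between the groups, 24.4% of them, where 19.2% of all tested genes did. The share among the adhesion genes was thus near the background. TLN1, FLNA, PARVA, TNS2, TNS4 and GIT1 rose, and ILK, ZYX, TES, SORBS3 and TNS1 fell, which makes 6 higher (background 10.4%) and 5 lower (background 8.77%). TNS4 could be tested only because of its counts in the restored-labelled libraries. Where a mean of at least 1 CPM was required, which left it out, 10 of 44 genes passed (22.7%), 5 higher and 5 lower, beside 19.7% of all genes then tested. Expressed as restored-labelled over parental on the log2 scale, the median change was -0.08 over the 45 genes and 0.00 over all tested genes, and the median size of the change regardless of sign was 0.26 against 0.31. In 12 of the 45 genes the values of the groups did not overlap, the 11 named and KANK1, where 23.9% of all tested genes had no overlap. The 12 were 6 higher (background 12.7%) and 6 lower (background 11.2%). The log2 fold changes of the 34 genes that did not pass ran from -1.02 to 0.83. For 29 of these 34 the 95% confidence interval lay within 1 log2 unit of 0 on both sides. Without both replicate 1 libraries, a comparison added after the data were seen, 20 genes passed (44.4%), 6 higher and 14 lower, beside 32.3% of all tested genes. The 9 genes gained there were all lower. Leaving out 1 library at a time gave between 7 (without restored replicate 3) and 14 (without parental replicate 1) genes, which were 15.2% and 31.1% of those tested, beside 10.7% and 24.1% of all tested genes. The number that were lower was 2 without restored replicate 3, 3 without parental replicate 2 or restored replicate 4, and 8 without parental replicate 1. The shares of all tested genes that were higher or lower were not determined with libraries left out. The directions in these comparisons therefore have no background beside them.

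**Figure D1:**
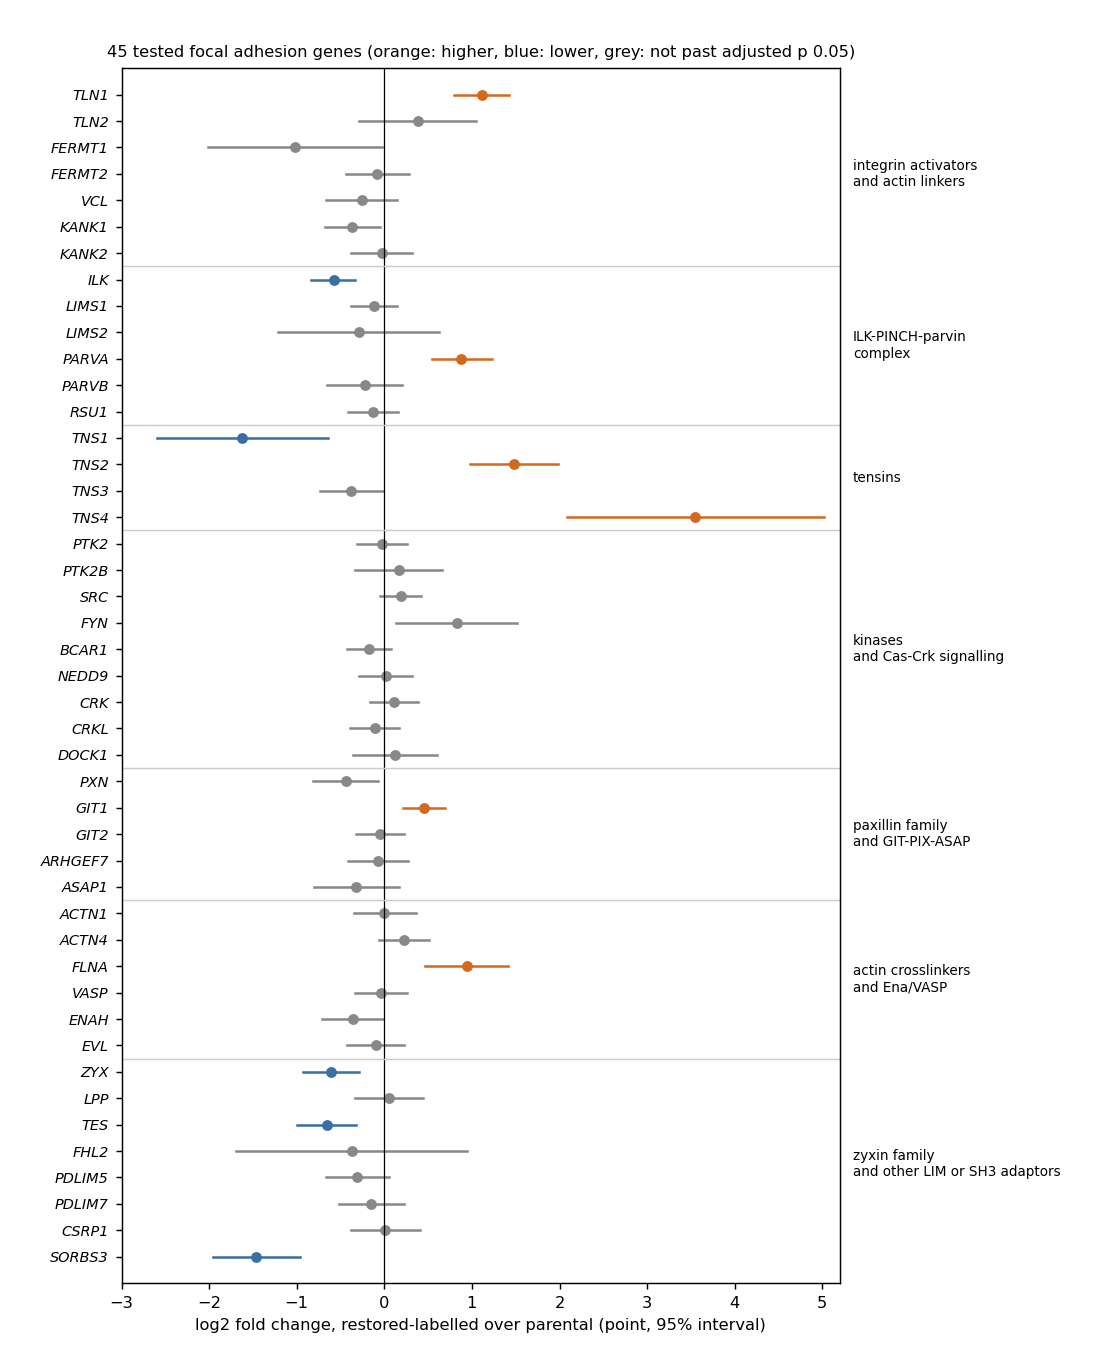
Log2 fold change (x axis, restored-labelled over parental) of each of the 45 tested genes, with its 95% confidence interval, grouped by role. Orange genes rose and blue genes fell at an adjusted p under 0.05, as 19.2% of all tested genes did in either direction. TNS1 and TNS2 lie on opposite sides of 0, and the 9 genes of kinase and Cas-Crk signalling are all grey.

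The integrin activators and their links to actin were examined first. TLN1 (ENSG00000137076, GRCh38 chromosome 9, 35696948 to 35732395, minus strand) encodes talin-1, the main talin of non-muscle cells. Parental replicates 1 to 4 had 158, 167, 149 and 193 CPM of it, and the restored-labelled ones, in the same order, 435, 328, 341 and 333 CPM. All restored-labelled libraries lay above all parental ones, and replicate 1 was the highest of them. The means were 166 CPM ± 19.03 and 359 CPM ± 50.98 (SD, n = 4 each), and the log2 fold change was 1.11 (edgeR adjusted p = 0.000571, SE 0.14). Of the 7 tested genes of this role TLN1 was the only one to pass (14.3%, beside 19.2% of all tested genes).

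TLN1 lies in a stretch of chromosome 9 in which other genes were higher too. Of its 40 nearest tested neighbours, which span 2.99 megabases, 36 had a positive log2 fold change, 29 were called higher and 0 lower, and their median was 0.93. TLN1 exceeded that median by 0.18. A neighbour median this high or higher was found around 0.168% of all tested genes. The part of the neighbourhood in the talin result was not tested. TLN1 overlaps CREB3 on the opposite strand by 61 exonic bases, and CREB3 had a log2 fold change of 1.29 (edgeR adjusted p = 0.000151).

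The second talin, TLN2, was at 2.31, 5.62, 5.88 and 8.09 CPM in the parental and 7.43, 6.27, 7.24 and 7.65 CPM in the restored-labelled libraries, and the groups overlapped (log2 fold change 0.38, 95% interval -0.29 to 1.05). Measured per kilobase of exon, TLN1 supplied 98.03% ± 0.742 of the talin RNA in the parental and 98.8% ± 0.156 in the restored-labelled libraries (SD, n = 4 each). The summed talin level rose with TLN1, from 16.9 ± 1.99 to 36.1 ± 5.07 CPM per kilobase.

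Vinculin (VCL, ENSG00000035403, chromosome 10, 73995193 to 74121363), which binds stretched talin and actin, showed how replicate 1 bears on the comparison. It was at 93.2 CPM in parental replicate 1 and between 152 and 153 CPM in the other parental libraries, while restored replicate 1 had 146 CPM and its fellows 95.5 to 114 CPM. Replicate 1 of each group thus lay nearer to the other libraries of the opposite group than to those of its own. The log2 fold change was -0.26 (SE 0.19, 95% interval -0.67 to 0.15, edgeR adjusted p = 0.357) and became -0.55 (edgeR adjusted p = 0.00374) without both replicate 1 libraries.

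The kindlins, which activate integrins together with talin, did not pass. FERMT2, the broadly expressed kindlin-2, had a log2 fold change of -0.08 (95% interval -0.44 to 0.28) and supplied 91.3% ± 2.59 and 95.5% ± 1.97 of the kindlin RNA per length. FERMT1, the epithelial kindlin-1, stood at a low 2.28 CPM ± 0.913 and 1.11 CPM ± 0.593 (SD, n = 4 each), with a log2 fold change of -1.02 (edgeR adjusted p = 0.14) and overlapping groups. KANK1 and KANK2 bind the talin rod and tie adhesions to microtubules. KANK1 was at 33.2 to 45.9 CPM in the parental and 25.3 to 32.7 CPM in the restored-labelled libraries, without overlap, and did not pass (log2 fold change -0.37, edgeR adjusted p = 0.0977), while KANK2 was at 45.9 CPM ± 4.59 and 44.9 CPM ± 9.27.

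**Figure D2:**
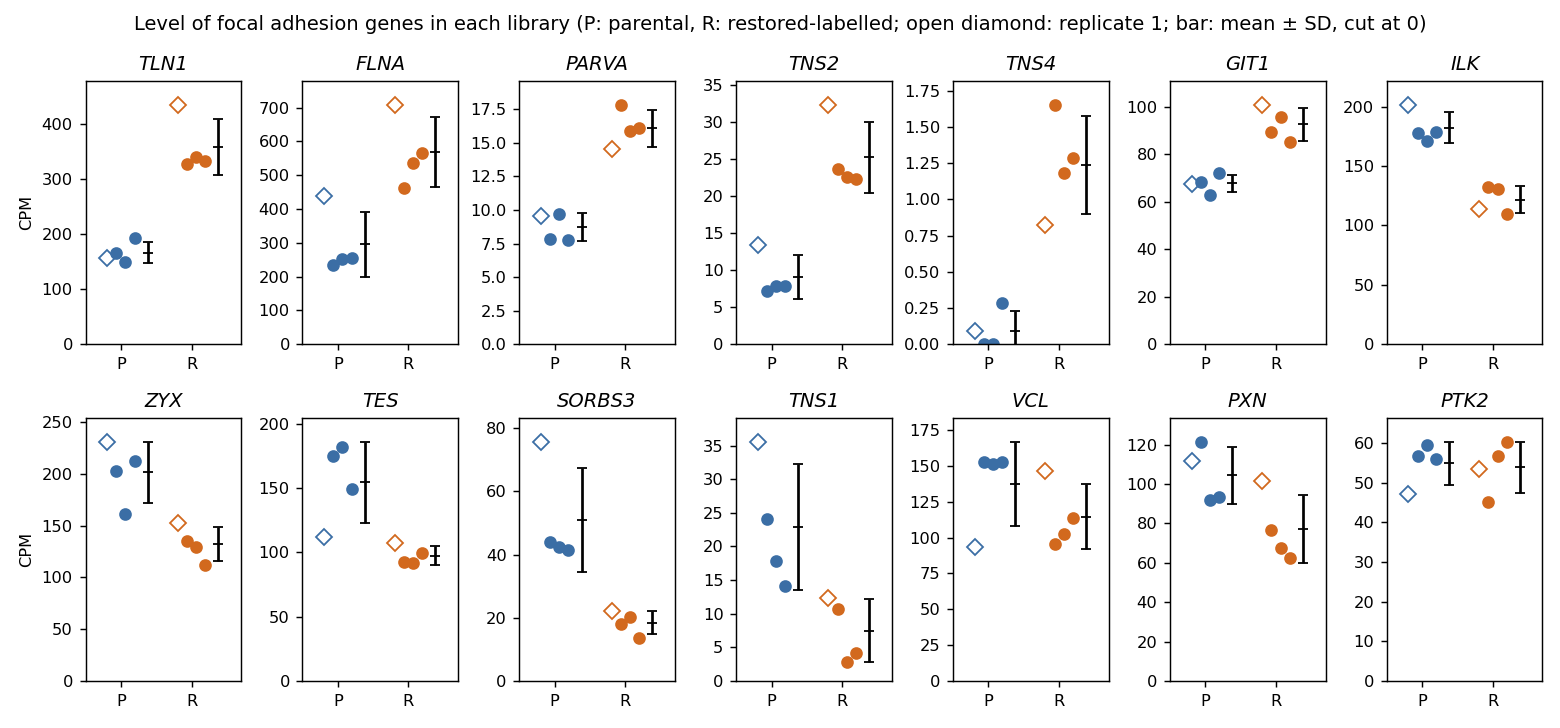
CPM (y axis, from 0) of the 11 genes that passed and of VCL, PXN and PTK2 in each of the 4 parental (blue, P) and 4 restored-labelled (orange, R) libraries; open diamonds are replicate 1, black bars the mean ± SD. In VCL replicate 1 of each group sits near the other libraries of the opposite group, at 93.2 and 146 CPM, while in TLN1 the groups are separated.

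In the ILK-PINCH-parvin complex 2 of 6 tested genes passed (33.3%, beside 19.2% of all tested genes), in opposite directions. ILK (ENSG00000166333, chromosome 11, 6603708 to 6610874, plus strand) encodes integrin-linked kinase, a pseudokinase that is the core of the complex. It was at 201, 178, 171 and 179 CPM in the parental and 114, 132, 130.5 and 110.0 CPM in the restored-labelled libraries. The groups were well apart, and the spread within each was small. ILK fell by 0.58 on the log2 scale (edgeR adjusted p = 0.00663, SE 0.12), from 182 CPM ± 13.2 to 122 CPM ± 11.3 (SD, n = 4 each). Its exons overlap those of TAF10 on the opposite strand over 68.1% of their length. TAF10 had a log2 fold change of -0.35 (edgeR adjusted p = 0.345, SE 0.25), and whether the counting used strand is not given in the sources used here, so that reads of the 2 genes may have been mixed.

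PARVA (ENSG00000197702, chromosome 11, 12377185 to 12535356) encodes alpha-parvin, which joins ILK to actin. It was at 9.52, 7.85, 9.71 and 7.801 CPM in the parental and 14.5, 17.8, 15.9 and 16.1 CPM in the restored-labelled libraries. The groups were separated by more than the spread within either. PARVA rose by a log2 fold change of 0.88 (edgeR adjusted p = 0.00367, SE 0.16), and its 40 neighbours had a median of 0.00. PARVB, which encodes beta-parvin, was at 18.2 CPM ± 3.498 and 15.6 CPM ± 3.06 and did not pass (log2 fold change -0.22, 95% interval -0.65 to 0.20). Per length, the share of PARVA in the parvin RNA was 21.9% ± 2.51 (range 19.6% to 24.4%) in the parental and 37.6% ± 3.49 (range 33.8% to 42.1%) in the restored-labelled libraries, while the summed parvin level was 3.14 ± 0.529 and 3.36 ± 0.502 CPM per kilobase. Per length, PARVB remained the larger of the pair in every library.

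The other partners of ILK did not pass. LIMS1, which encodes the adaptor PINCH1, had a log2 fold change of -0.12 (95% interval -0.38 to 0.14), and RSU1, a small protein bound to PINCH1, one of -0.13 (95% interval -0.41 to 0.16). LIMS2, which encodes PINCH2, was near 2 CPM and supplied 2.45% ± 1.04 and 2.07% ± 1.25 of the PINCH RNA per length.

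The tensins, which bind integrin tails and actin in mature, elongated adhesions, held the largest changes. TNS2 (ENSG00000111077, chromosome 12, 53046969 to 53064372) was at 13.4, 7.18, 7.84 and 7.801 CPM in the parental and 32.3, 23.6, 22.6 and 22.3 CPM in the restored-labelled libraries. Replicate 1 was the highest library of each group, and the groups did not overlap. TNS2 rose by a log2 fold change of 1.48 (edgeR adjusted p = 0.0016, SE 0.23), beside a neighbour median of -0.10. Its exons overlap TNS2-AS1 over 4.5% of their length, which had a log2 fold change of 0.16 (edgeR adjusted p = 0.551).

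TNS1 (ENSG00000079308, chromosome 2, 217799588 to 218033982, minus strand) was at 35.6, 24.1, 17.8 and 14.2 CPM in the parental and 12.3, 10.6, 2.81 and 4.18 CPM in the restored-labelled libraries. The lowest parental value was only a little above the highest restored-labelled one, and the spread within both groups was wide. TNS1 fell by 1.62 on the log2 scale (edgeR adjusted p = 0.0285, SE 0.45), with a neighbour median of -0.33. The call was lost without parental replicate 2 (edgeR adjusted p = 0.0679), restored replicate 3 (0.0617) or restored replicate 4 (0.089).

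TNS4 (ENSG00000131746, chromosome 17, 40475828 to 40501597, minus strand) encodes the short tensin Cten, which lacks the actin-binding part of the others. It had 1, 0, 0 and 4 counts in the parental and 23, 20, 24 and 33 counts in the restored-labelled libraries. It was thus barely detected in one group and low in the other, at 0.825 to 1.65 CPM, and it passed the expression filter only through the restored-labelled libraries. The summed counts gave a ratio of 11.9 (exact 95% interval 4.94 to 37.5, counting error only), and the edgeR adjusted p was 0.00526 at a fitted log2 fold change of 3.55. The fitted value was 5.16 without parental replicate 4, which holds 4 of the 5 parental counts. Of its 40 neighbours, 34 had a positive log2 fold change, with a median of 0.39.

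TNS3, the most abundant tensin of the parental cells, was at 51.3 CPM ± 7.03 and 39.3 CPM ± 7.69 and did not pass (log2 fold change -0.38, edgeR adjusted p = 0.131). The summed tensin level per length was 6.897 ± 0.877 CPM per kilobase in the parental and 7.16 ± 1.18 in the restored-labelled libraries. TNS2 supplied 16.01% ± 3.18 of it in the parental and 43.4% ± 2.296 in the restored-labelled libraries, TNS1 20.2% ± 6.63 and 6.31% ± 3.69, TNS3 63.5% ± 9.01 and 46.6% ± 6.33, and TNS4 0.265% ± 0.393 and 3.72% ± 1.42 (SD, n = 4 each).

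**Figure D3:**
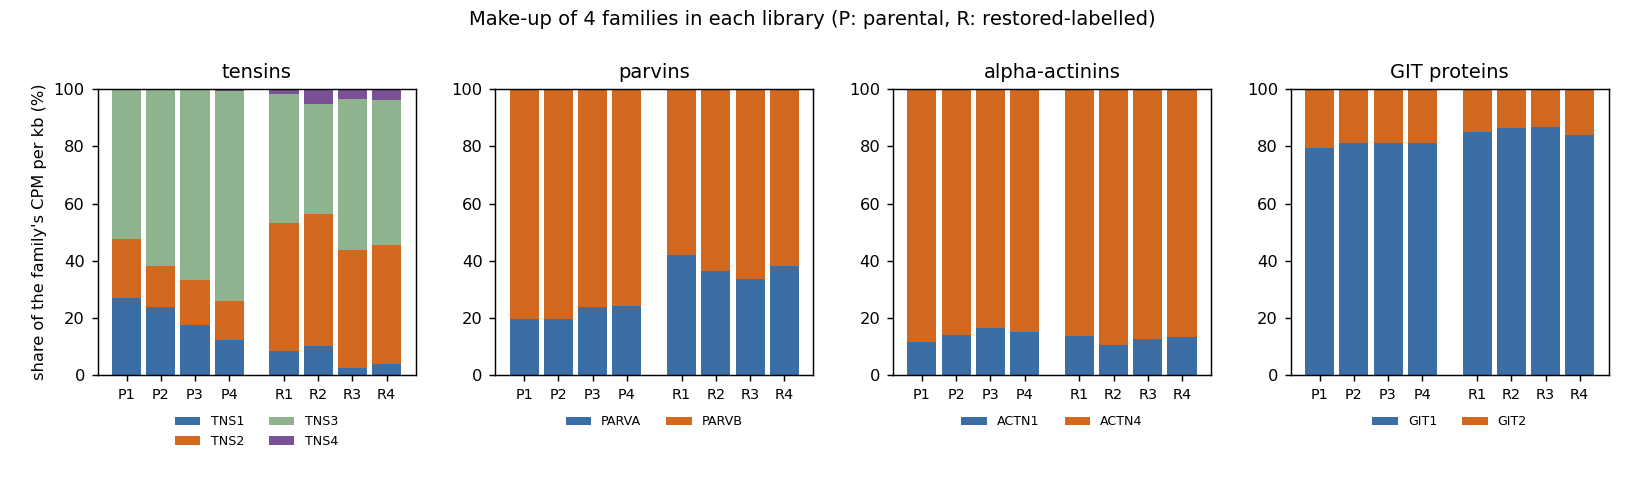
Share of each member (stacked bars, % of the family's CPM per kilobase of exon) in the tensins, parvins, alpha-actinins and GIT proteins, 1 bar per library. TNS2 goes from 16.01% to 43.4% of the tensins and PARVA from 21.9% to 37.6% of the parvins, while ACTN1 stays between 10.6% and 16.6% of the alpha-actinins.

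Differences between close relatives were tested as the log2 ratio of their levels in each library, in 19 pairs of which both genes passed the expression filter. For 4 by 4 libraries the smallest two-sided p of an exact permutation test over the 70 labelings is 0.0286. That value was reached by TNS1 over TNS2 (difference -3.25), TNS2 over TNS3 (1.89), PARVA over PARVB (1.1) and GIT1 over GIT2 (0.50), whose ratios did not overlap between the groups. Adjusted over the 19 pairs, these exact permutation p-values became 0.136, and no pair passed. With a smallest p of 0.0286, no pair could pass this adjustment through its own separation alone. The adjusted values therefore do not decide whether any ratio differs. For the remaining 15 pairs the exact permutation p was 0.0571 or higher. The ratio of ZYX to LPP, for example, moved by -0.65 (exact p = 0.0857) and that of ACTN1 to ACTN4 by -0.21 (exact p = 0.229).

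Of the signalling kinases and the Cas-Crk module none of the 9 tested genes passed, where 19.2% of all tested genes did. Whether 0 of 9 differs from that share was not tested. PTK2 (ENSG00000169398, chromosome 8, 140657900 to 141002216) encodes FAK, the tyrosine kinase recruited to every focal adhesion. It was at 46.99, 56.8, 59.4 and 55.96 CPM in the parental and 53.3, 44.99, 56.7 and 60.2 CPM in the restored-labelled libraries, which overlapped fully. Its log2 fold change was -0.03 with a 95% interval of -0.31 to 0.26. SRC, the kinase that acts with FAK, had a log2 fold change of 0.19 (95% interval -0.05 to 0.42). FYN, a kinase of the SRC family, stood at 1.55 CPM ± 0.552 and 2.74 CPM ± 0.525, with a log2 fold change of 0.83 (edgeR adjusted p = 0.0912).

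Among the adaptors that FAK and SRC phosphorylate, BCAR1 (p130Cas) had a log2 fold change of -0.17 (95% interval -0.43 to 0.08) and its relative NEDD9 one of 0.02 (95% interval -0.29 to 0.32). CRK, CRKL and DOCK1, the adaptors and the exchange factor that pass the signal to RAC1, lay between -0.11 and 0.12. PTK2B, the FAK relative PYK2, was at 5.001 CPM ± 0.948 and 5.602 CPM ± 1.04 and supplied 13.8% ± 3.12 and 15.3% ± 2.23 of the RNA of the FAK pair per length. For 8 of the 9 genes in this role, all but FYN, the log2 fold change was smaller than 0.2 in size.

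Paxillin (PXN, ENSG00000089159, chromosome 12, 120210439 to 120265771, minus strand), the docking protein of the site, was at 112, 121, 91.7 and 93.3 CPM in the parental and 101, 76.8, 67.4 and 62.3 CPM in the restored-labelled libraries. Restored replicate 1 lay among the parental values and the other restored-labelled libraries below them. The log2 fold change was -0.44 (SE 0.17, 95% interval -0.81 to -0.07, edgeR adjusted p = 0.0894), and without restored replicate 1 it was -0.61 with an adjusted p of 0.0165.

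GIT1 (ENSG00000108262, chromosome 17, 29573469 to 29594054, minus strand) encodes a scaffold that binds paxillin and the exchange factor beta-PIX. It was at 67.2, 68.2, 62.98 and 72.1 CPM in the parental and 101, 89.1, 95.6 and 84.9 CPM in the restored-labelled libraries, with narrow spread and no overlap. GIT1 rose by a log2 fold change of 0.45 (edgeR adjusted p = 0.0162, SE 0.11), and its neighbours had a median of 0.27, with 34 of 40 positive. The call was lost without parental replicate 2 (edgeR adjusted p = 0.0542) or restored replicate 3 (0.0527). Its relative GIT2 had a log2 fold change of -0.05 (95% interval -0.32 to 0.22), and the share of GIT1 in the RNA of both per length went from 80.7% ± 0.838 to 85.6% ± 1.202. ARHGEF7, which encodes beta-PIX, was at 64.4 CPM ± 11.2 and 61.2 CPM ± 8.98, and ASAP1, a GTPase-activating protein for Arf, had a log2 fold change of -0.32 (95% interval -0.80 to 0.17).

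Of the actin crosslinkers and the Ena/VASP proteins, 1 of 6 tested genes passed (16.7%, beside 19.2% of all tested genes). FLNA (ENSG00000196924, chromosome X, 154348524 to 154374638, minus strand) encodes filamin A, which crosslinks actin filaments and binds integrin tails. It was at 439, 236, 253 and 256 CPM in the parental and 708, 463, 537 and 567 CPM in the restored-labelled libraries. Replicate 1 was the highest library of both groups, and parental replicate 1 came close to the lowest restored-labelled value. FLNA rose by a log2 fold change of 0.94 (edgeR adjusted p = 0.0132, SE 0.21), from 296 CPM ± 95.98 to 569 CPM ± 102 (SD, n = 4 each), while its neighbours had a median of -0.23. It is the gene whose CArG box is printed first above. The other 2 genes with a box, RSU1 and FHL2, had log2 fold changes of -0.13 and -0.37, the latter being -1.59 without restored replicate 1.

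ACTN4 and ACTN1 encode the alpha-actinins, which bundle actin and bind vinculin. ACTN4 was at 694, 761, 655 and 854 CPM in the parental and 884, 892, 868 and 822 CPM in the restored-labelled libraries, overlapping by 1 parental library (log2 fold change 0.23, 95% interval -0.06 to 0.51). ACTN1 was at 217 CPM ± 44.1 and 218 CPM ± 24.6. VASP, ENAH and EVL, which extend actin filaments at the adhesion, had log2 fold changes of -0.04, -0.36 and -0.10, and VASP supplied 89.1% ± 1.37 and 90.5% ± 2.07 of their RNA per length.

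In the zyxin family and the other LIM or SH3 adaptors, 3 of 8 tested genes passed and all 3 were lower (37.5%). Of all tested genes 19.2% passed and 8.77% were lower, and a difference from these shares was not tested. ZYX (ENSG00000159840, chromosome 7, 143381080 to 143391111) encodes zyxin, which gathers Ena/VASP proteins at adhesions under tension. It was at 231, 202, 161 and 212 CPM in the parental and 153, 135, 129.8 and 112 CPM in the restored-labelled libraries, without overlap but with parental replicate 3 close to restored replicate 1. ZYX fell by 0.61 on the log2 scale (edgeR adjusted p = 0.0156, SE 0.14). The call was lost without restored replicate 3 (edgeR adjusted p = 0.0504) or restored replicate 4 (0.0554). Its relative LPP had a log2 fold change of 0.05 (95% interval -0.34 to 0.44).

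TES (ENSG00000135269, chromosome 7, 116210493 to 116258783) encodes testin, a LIM protein that binds zyxin. It was at 112, 175, 182 and 149 CPM in the parental and 107, 92.1, 91.4 and 99.5 CPM in the restored-labelled libraries. Parental replicate 1 nearly met restored replicate 1, and the others were well apart. TES fell by 0.66 on the log2 scale (edgeR adjusted p = 0.0148, SE 0.16), a call lost without parental replicate 2 (edgeR adjusted p = 0.0528) or restored replicate 3 (0.0514).

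SORBS3 (ENSG00000120896, chromosome 8, 22544986 to 22575788) encodes vinexin, an SH3 adaptor that binds vinculin. It was at 75.7, 43.9, 42.4 and 41.6 CPM in the parental and 22.1, 17.9, 20.4 and 13.5 CPM in the restored-labelled libraries. Parental replicate 1 was far above the rest, and even the lowest parental library was well above all restored-labelled ones. SORBS3 fell by 1.46 on the log2 scale (edgeR adjusted p = 0.00176, SE 0.23), beside a neighbour median of -0.28. It passed in all 16 alternative analyses, as did TLN1, ILK, PARVA, TNS2 and FLNA. These analyses re-use the same libraries and are not independent of each other. TNS4 passed in the 15 that tested it and was left out where a mean of at least 1 CPM was required. Its passing is no further support, since its counts in the restored-labelled libraries alone carried it through the expression filter.

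The remaining LIM proteins did not pass with all libraries in the comparison. PDLIM5 and PDLIM7, which bind alpha-actinin or actin, had log2 fold changes of -0.31 and -0.15, and CSRP1, which binds alpha-actinin and zyxin, one of 0.01. FHL2, which also acts as a transcriptional cofactor, was the most variable of the 45 genes between replicates, with a pooled SD of 0.97 log2 units where the median gene of the set had 0.25. Restored replicate 1 had 7.497 CPM and its fellows 1.17 to 1.32 CPM, against 1.93 to 4.72 CPM in the parental ones. Without restored replicate 1 its log2 fold change was -1.59 (edgeR adjusted p = 0.0108), and without parental replicate 1 that of PDLIM5 was -0.45 (edgeR adjusted p = 0.0214).

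**Figure D4:**
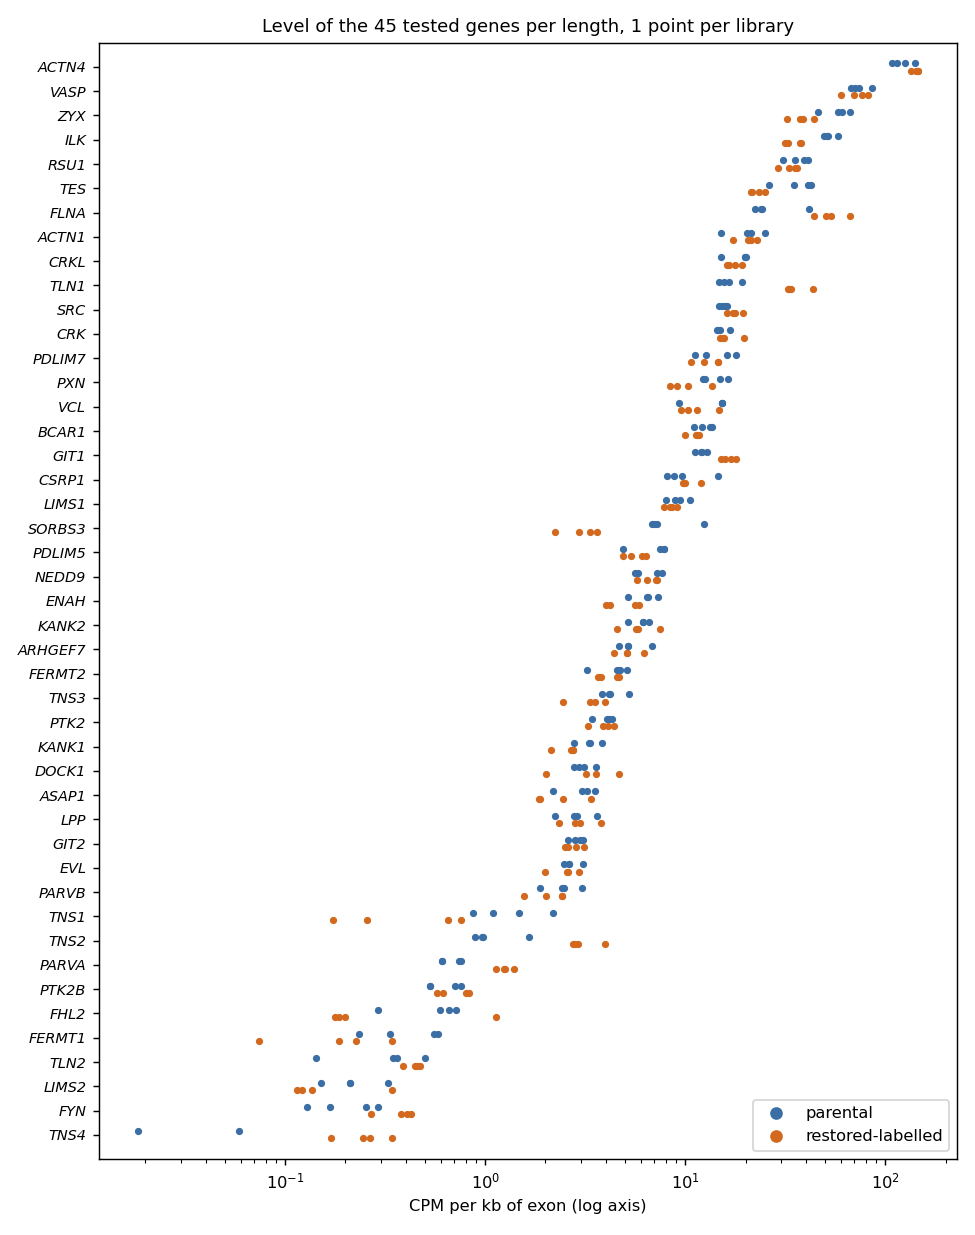
CPM per kilobase of exon (log x axis) of the 45 tested genes in each library, ordered by the parental mean; blue points are parental and orange points restored-labelled libraries, and 2 parental libraries without a TNS4 count are not drawn. ACTN4 and VASP lead in both groups, and FLNA and TLN1 move from ranks 7 and 10 to ranks 3 and 5.

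Levels were then compared between genes, per kilobase of merged exons, a length that understates genes with many transcript forms. ACTN4 was the highest of the set at 122 ± 14.3 and 142 ± 5.13 CPM per kilobase (SD, n = 4 each), followed by VASP at 74.3 ± 7.88 and 72.2 ± 9.46. Below them in the parental libraries came ZYX (57.9 ± 8.45) and ILK (52.4 ± 3.78), which do not differ beyond their spread, and then RSU1 (36.5 ± 4.49) and TES (36.1 ± 7.39), which do not either. In the restored-labelled libraries the third place was taken by FLNA at 53.7 ± 9.66 CPM per kilobase, and ZYX, TLN1, ILK and RSU1 followed between 37.98 and 33.4. ACTN4 stood above 97.7% of all tested genes by this measure and TNS4 above 1.206%. Genes with low counts in both groups were TRIP6 (2 to 25 counts in a library), FLNC (at most 8), TGFB1I1 (at most 4) and ARHGEF6 (at most 2), and these 4 were not tested.

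**Figure D5:**
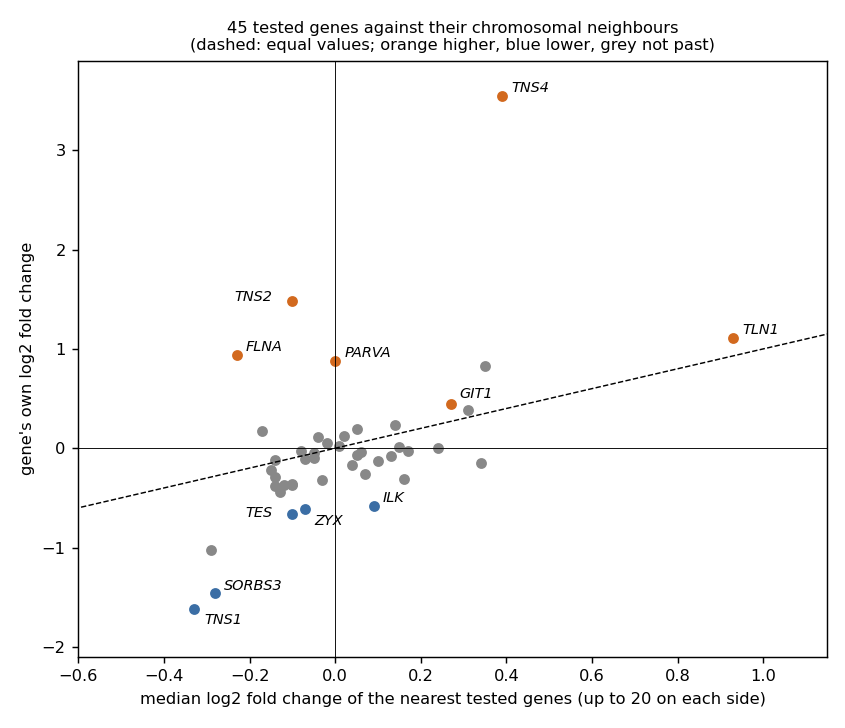
Log2 fold change of each of the 45 tested genes (y axis) against the median log2 fold change of the nearest tested genes on its chromosome (x axis; 40 genes, or 23 for KANK1, 34 for CRK and 39 for ARHGEF7); the dashed line marks equal values. TLN1 stands apart on the x axis at 0.93 and close to the line, while TNS2, FLNA and PARVA rose beside neighbour medians between -0.23 and 0.00.

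Chromosomal surroundings were compared for all 11 called genes. Apart from TLN1, the neighbour medians lay between -0.33 (TNS1) and 0.39 (TNS4), where the 5th and 95th percentiles over all tested genes were -0.32 and 0.42. After subtraction the differences were 1.58 for TNS2, 1.17 for FLNA, 0.88 for PARVA and 0.18 for GIT1 among the genes that rose. Among those that fell they were -0.68 for ILK, -0.54 for ZYX, -0.56 for TES, -1.18 for SORBS3 and -1.29 for TNS1. The part of the neighbourhoods in these values was not tested.

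Other genes of the same structure were examined through 3 lists of named genes. Of 25 integrin subunits 14 were tested, and 5 were higher and 0 lower (35.7% called, where 19.2% of all tested genes were), with a median log2 fold change of 0.36. ITGB1, the beta subunit that talin activates, rose by 1.11 (edgeR adjusted p = 0.0178, SE 0.27), and so did ITGA6 and ITGA1, alpha subunits of laminin and collagen receptors, by 1.66 (edgeR adjusted p = 0.00142, SE 0.25) and 1.06 (edgeR adjusted p = 0.00162, SE 0.16). The call of ITGB1 was lost without restored replicate 4 (log2 fold change 0.96, edgeR adjusted p = 0.061).

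Of 32 further regulators of adhesion sites 27 were tested, and 3 were higher and 6 lower (33.3% called, beside the same 19.2%), with a median of -0.06. NEXN, an actin-binding protein of adhesions, and PALLD, which encodes the actin crosslinker palladin, fell by 1.12 (SE 0.18) and 2.16 (SE 0.43) on the log2 scale (edgeR adjusted p = 0.00209 and 0.00629). PALLD was at 33.1 CPM in parental replicate 1, below the 38.5 CPM of restored replicate 1, and at 114 to 151 CPM in the other parental against 15.5 to 23.5 CPM in the other restored-labelled libraries. Of 16 genes tied to the serum response factor, with SRF itself, MRTFA, MRTFB, CCN1 and CCN2 among them, 14 were tested. Of these 4 were higher and 0 lower (28.6% called, beside 19.2% of all tested genes). The median was -0.02, with 7 changes positive and 7 negative. The 4 higher genes were MYL9, which encodes a regulatory light chain of non-muscle and smooth muscle myosin, and TPM1, TPM2 and TPM4, which encode tropomyosins. MYL9 was at 129, 84.4, 66.9 and 52.7 CPM in the parental and 348, 377, 311 and 266 CPM in the restored-labelled libraries, without overlap. Its log2 fold change was 1.97 (edgeR adjusted p = 0.000575, SE 0.25). TPM1 rose by 1.38 (edgeR adjusted p = 0.000423, SE 0.17), whereas TPM2 lies in the region of TLN1, with a neighbour median of 0.93. All 4 had been on the list from the start, and TPM2 and TPM4 were picked out of it for naming after their values were seen.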

How the data were processed

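Counts per gene were deposited as whole numbers without normalization in 1 table, whose 8 columns were each matched by name to 1 sample. Per the submitters' processing notes, bcl2fastq, fastp 0.23.1, STAR 2.7.4 and the build GRCh38 were used; the counting program, annotation and use of strand are not given in the sources used here. Symbols came from a table of gene names, and positions and merged exon lengths from GENCODE 29 (GRCh38), in which 57943 of 58206 identifiers were found.

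Low genes were removed with filterByExpr (at its minimum count of 10 and minimum total of 15), and the remaining counts were scaled by TMM factors and compared between 4 parental and 4 restored-labelled libraries with the quasi-likelihood test of edgeR 4.0.16 in R 4.3.3, without covariates, and Benjamini-Hochberg adjustment covered the 14289 genes tested. Standard errors were derived from the fold change and its F statistic. Log2 ratios, which were computed here, used a prior count of 2. The interval of the ratio of summed counts covers counting error only. No libraries of a group agreed within sampling noise (chi-square per degree of freedom 9.19 to 92.0). That value was 57.7 to 92.0 for pairs with parental replicate 1 and 53.4 to 63.8 for pairs with restored replicate 1. For the other pairs it was 9.19 to 42.0. Neighbour medians used up to 20 tested genes on each side, fewer near chromosome ends.

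Members and lists were chosen with earlier results of these data known. Every tested gene past the threshold was named with its values, as were VCL, PXN, PTK2, ILK and ZYX. So were the 2 genes of smallest p in each further list, AXIN1 and ITGB1. Other genes of the 49 were to be given by range or role. Many of them are nevertheless given with their own values, outside this rule, some from fits with libraries left out. Alternatives were other scalings, filters, DESeq2 1.42.0, limma 3.58.1 (voom), a replicate block and leaving out libraries. A further gene list and 1 marker are not reported here.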

Additional observations from a re-analysis of the deposited data

Results flagged for a closer look

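The genes given library by library, the 11 that passed with VCL, PXN and PTK2, were screened for a library far from the other 3 of its group. There were 28 groups of 4, and in independent groups chance alone gives such a value in about 1 in 20. These groups come from the same 8 libraries and are not independent, so their number of such values cannot be judged by that rate. Such values numbered 6, and all were in a replicate 1 library. In parental replicate 1, FLNA was at 439 CPM against 236 to 256 CPM in the others, SORBS3 at 75.7 against 41.6 to 43.9, TNS2 at 13.4 against 7.18 to 7.84, and VCL at 93.2 against 152 to 153. In restored replicate 1, TLN1 was at 435 CPM against 328 to 341 CPM in the others, and TNS2 at 32.3 against 22.3 to 23.6. The direction was upward in 5 of the 6. FLNA, SORBS3, TNS2 and TLN1 passed the threshold with and without these libraries, whereas VCL passed only without both of them. The cause was not tested.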

How the results depend on the processing

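The number of adhesion genes past the threshold was 11 and ranged from 7 to 14 with 1 library left out (5 to 6 higher, 2 to 8 lower). It was lowest without restored replicate 3 (15.2%, beside 10.7% of all tested genes) and highest without parental replicate 1 (31.1%, beside 24.1%). Without both replicate 1 libraries, added after seeing the data, it was 20 (44.4%), with 14 lower. All 11 calls were kept, and ASAP1, ENAH, FERMT1, FHL2, KANK1, PDLIM5, PXN, TNS3 and VCL were gained. The further regulators then gave 15 calls in place of 9 and the serum response list 9 in place of 4. Over all tested genes the share called rose as well, from 19.2% to 32.3%, and its split by direction was not determined. With DESeq2 size factors, total counts, no expression filter, the DESeq2 Wald test and limma-voom the same 11 genes passed. They were 22.4% to 25.0% of those tested, beside 10.6% to 24.5% of all tested genes. With a mean of at least 1 CPM 10 did (22.7%, beside 19.7%), since TNS4 was not tested. Deviations from the group means of same-numbered libraries had correlations from -0.0629 to 0.227. Those of differently numbered libraries ran from -0.425 to 0.448. The labels do not say whether replicate numbers mark a shared batch, and these correlations do not decide it. With the replicate block 9 passed (20.0%, beside 14.2% of all tested genes), without GIT1 (edgeR adjusted p = 0.0564) and TES (0.05005). PTK2, at -0.03, was 0.06 with total counts only, a scaling that moved the median of all genes to 0.09, 0.00 without an expression filter, and between -0.09 and 0.05 with 1 library left out. The VASP to EVL difference, 0.06, ranged from -0.08 to 0.17 with 1 library left out. The cause of these shifts was not tested.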
